A study of Drosophila melanogaster with 4 samples.

Results

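Neural stem cells (NSCs) of the Drosophila larva at 24 h after larval hatching (ALH) were divided by whether they carried RNA of the Hox genes Antp, Ubx and abd-A. Of 612 NSCs in 2 libraries, 174 were Hox-positive, with at least 2 UMIs (unique molecular identifiers, each standing for 1 captured RNA molecule) of the 3 genes together, 408 were Hox-negative, with 0 UMIs, and 30 had 1 UMI and were placed in neither group. A cell counted as an NSC if it had 200 to 6000 genes, at most 5% mitochondrial UMIs, at least 2 UMIs of dpn, at least 1 of wor and 0 of nSyb. The genes dpn and wor encode transcription factors of NSCs, and nSyb encodes a synaptic vesicle protein of neurons. The cells were chosen by the UMIs of the 3 Hox genes, dpn, wor and nSyb, so the levels of these genes are given as a description and were not tested.

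The cells came from larvae in which wor-GAL4, a driver active in NSCs, expressed the membrane protein UAS-mCD8-GFP, and live GFP+ cells were sorted before droplet capture with version 3 of the 10x chemistry. Hox-positive and Hox-negative cells therefore shared genotype, stage, sort and library, and were separated here only by their Hox UMIs. Because GFP is inherited by the daughters of NSCs, the sort also held progenitors and neurons, and 1938 cells at 24 h ALH passed the limits on genes and mitochondrial UMIs, of 3567 in all 4 libraries of the series. The labels give the tissue as brain, and the number of animals per library is not given in the sources used here. The p-values rest on 2 libraries compared within each library. The spread they use was taken for most genes from the trend across genes, not measured gene by gene between the libraries.

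Hox genes encode homeodomain transcription factors that are expressed in ordered domains along the body axis and give segments their identity. In the fly central nervous system Antp is used mainly in thoracic segments, Ubx around the border of thorax and abdomen, and abd-A in abdominal segments of the ventral nerve cord, whereas the brain lobes develop largely without these genes. The brain lobes use other transcription factors instead, such as tll and oc. In NSCs, Hox genes and the factors of the temporal series, which are expressed one after another, shape how long each NSC divides and which neurons it makes. The question addressed here is how NSCs with and without trunk Hox RNA differed in the rest of their transcriptome at 24 h ALH, in a study of how NSCs of brain and ventral nerve cord leave quiescence in sequence.

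In the first library 131 of 361 NSCs were Hox-positive, a share of 36.3% (95% exact Clopper-Pearson interval 31.3 to 41.5), and in the second 43 of 251, a share of 17.1% (12.7 to 22.4). These intervals cover counting error only. The intervals of the 2 libraries did not overlap, and the second contributed fewer Hox-positive cells. Depth per cell had a median of 66132 UMIs in Hox-positive cells and 75736 in Hox-negative cells of the first library, and of 64044 and 63113 UMIs in Hox-positive and Hox-negative cells of the second. Summed over cells, the Hox-positive groups held 8622682 and 2600073 UMIs and the Hox-negative groups 15508524 and 12668260 UMIs.

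**Figure D1:**
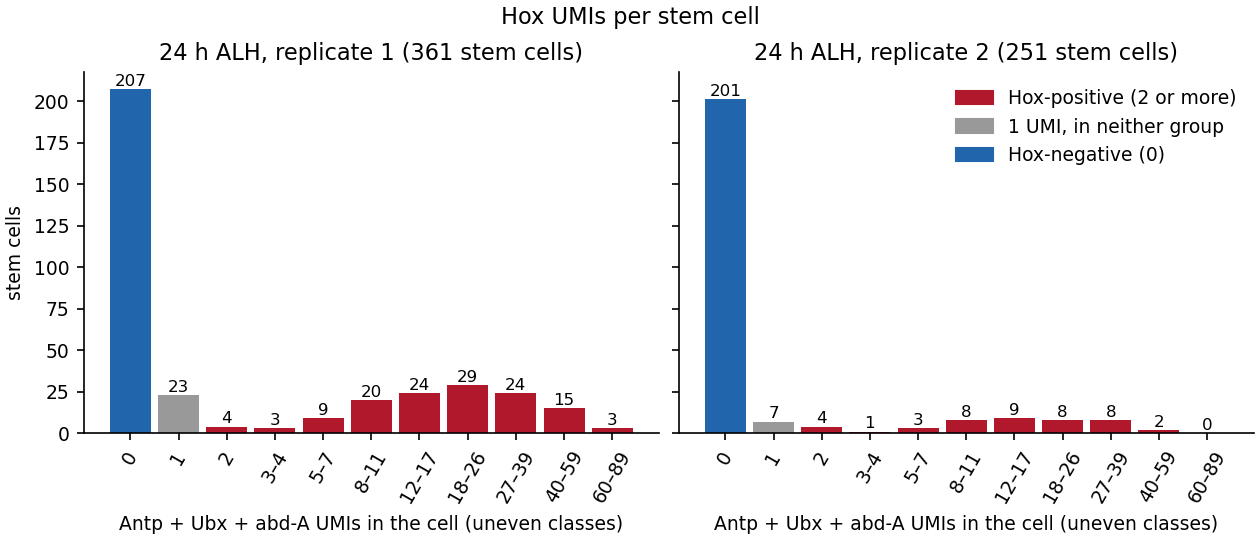
Number of NSCs (vertical axis) by their summed UMIs of Antp, Ubx and abd-A (horizontal axis, uneven classes), with 1 panel per 24 h ALH library and colours for Hox-positive cells, cells with 1 UMI and Hox-negative cells. Few cells lie just above the threshold: 4 cells in each library had exactly 2 UMIs, whereas 95 and 27 had 12 or more.

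The 2 groups were well apart in Hox RNA. The median Hox-positive cell held 20 Hox UMIs in the first library and 15 in the second, and the highest held 81 and 48. Just inside the threshold, the 4 cells of each library with 2 Hox UMIs had 0 and 28.5 CPM of tsh (CPM, the gene's UMIs per 1000000 UMIs of the summed cells). Just outside it, the 23 and 7 cells with 1 Hox UMI had 3.55 and 35.9 CPM of tsh. The cells with 1 UMI were also mixed for oc, a gene of the anterior head and brain, which 14 of the 23 and 2 of the 7 carried.

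Antp made up most of the Hox RNA. Every Hox-positive cell had at least 1 Antp UMI, and the sums held 2676 and 688 UMIs of Antp, 256 and 56 of Ubx, and 34 and 9 of abd-A in the first and second library. At 2 or more UMIs, 105 and 34 cells carried Antp alone, 20 and 5 Antp with Ubx, and 4 and 2 Antp with abd-A. No cell reached 2 UMIs of both Ubx and abd-A. The remaining Hox genes were near 0 in both groups and were not tested: lab, the most anterior, had 1 and 0 UMIs in Hox-positive cells and 33 and 4 in Hox-negative cells. Abd-B, the most posterior, had 0 and 0 UMIs in Hox-positive cells and 4 and 1 in Hox-negative cells. Scr had 2 and 0 UMIs in Hox-positive cells and 12 and 5 in Hox-negative cells, Dfd 5 and 1 against 13 and 0, and pb 1 and 4 against 12 and 0.

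Hox UMIs were also counted in cells that should lack these genes. Among cells with at least 2 UMIs of Rx, a brain gene, 8 of 36 and 3 of 62 had at least 1 Hox UMI, and 3 of 36 and 1 of 62 had 2 or more. The shares with 2 or more were 8.33% (exact interval 1.75 to 22.5) and 1.61% (0.0408 to 8.66), beside 36.3% and 17.1% among NSCs, with median depths of 62262.5 and 36146 UMIs. Among sorted neurons (at least 1 nSyb UMI and no dpn), 36.5% and 34.9% had 2 or more, at median depths of 17109 and 10947 UMIs. At stage 17 the same definition of NSCs gave 4 and 1 Hox-positive cells and 6 and 1 Hox-negative cells, which were too few to compare.

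The sums of raw UMIs per library and group were compared by edgeR's quasi-likelihood test with the library as a block, so that each Hox-positive sum was set against the Hox-negative sum of the same library. Of 6994 genes tested, 539 (7.71%) passed an adjusted p under 0.05, 273 (3.9%) higher and 266 (3.8%) lower in Hox-positive NSCs. The difference was at least 2-fold for 171 of them, 81 higher and 90 lower, and below 0.5 on the log2 scale for 251. For 510 of the 539 the sums of the 2 groups did not overlap, and 524 had the same sign in both libraries. Both counts were made among genes already called from these same sums, so they are no separate support. The shares over all 6994 genes are not given here. With 4 sums the fit had 1 residual degree of freedom and took the spread of most genes from the trend across genes. Without the block 152 genes passed, by DESeq2 99, and with cells restricted to a depth window, the 25th to 75th percentile of UMIs of the Hox-positive cells of the same library, 131, of which 152, 98 and 112 were among the 539. In a sum, fewer cells with a gene and less of its RNA per cell cannot be told apart, and shares of cells are therefore given beside the sums.

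Among the 20 genes with the largest differences, tsh, Ama, toy, tll, pnt, disco-r and E(spl)malpha-BFM passed in every alternative that tested them. Without the block hkb, unpg, CG1648, mirr, jim, ems, Optix and nerfin-1 did not pass. When the first Hox-positive sum was left out, hkb, unpg, CG1648, mirr, ems, Optix, grn, nerfin-1 and bru3 did not pass, and all of these but grn also failed without the second. bi did not pass without either Hox-negative sum. Among the other genes described in the following, hth did not pass without either Hox-positive sum, and nkd, nub, dan, grh, mira, nrv3, fne, stg, CycE, geminin, CycB3, Glut4EF, Thor, Nop56, Non1, ash2, E(spl)mbeta-HLH, E(spl)m7-HLH, Mlc2 and Hsp67Bc did not pass without the block.

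**Figure D2:**
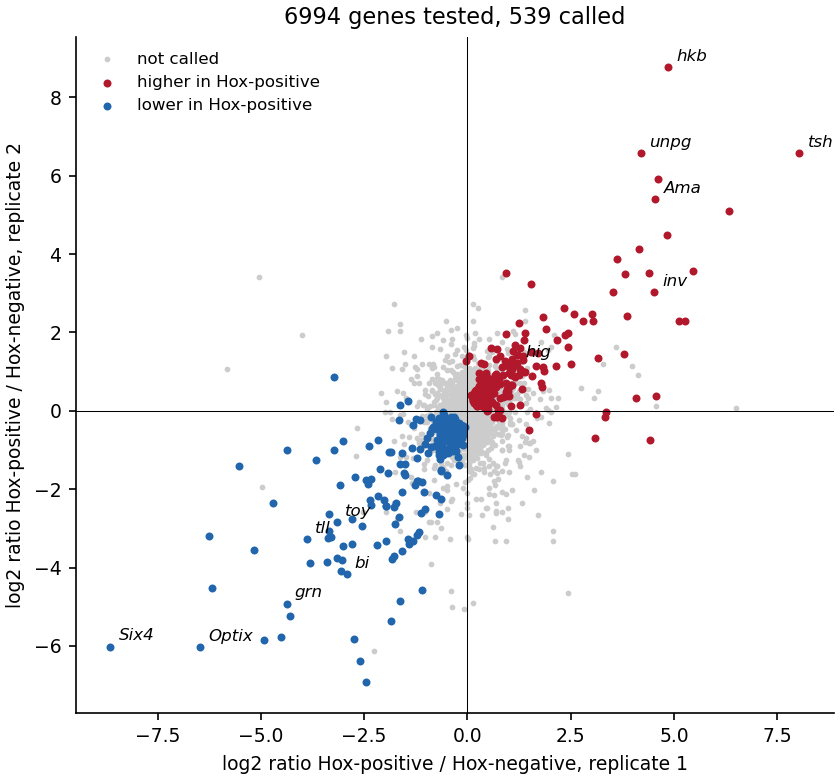
Each point is 1 of 6994 tested genes, placed by its log2 ratio (0.5 UMIs added to each sum) of Hox-positive over Hox-negative NSCs in the first library (horizontal axis) and the second library (vertical axis), with the 539 called genes in colour. Genes with large differences, among them tsh, hkb, Ama and unpg above 0 and Optix, grn, tll and toy below 0, lie far from 0 in both libraries.

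Of 4 tested genes that act with Hox proteins in the trunk, tsh, tio and hth were higher in Hox-positive NSCs and exd did not pass, beside 3.9% higher over all genes. tsh encodes a zinc finger protein of trunk identity (2L, 21828593 to 21837011, BDGP6.54). It had 1093 and 284 UMIs in Hox-positive cells, or 127 and 109 CPM, against 7 and 14 UMIs in Hox-negative cells, or 0.451 and 1.11 CPM. This is a log2 fold change of 7.32 (SE 0.16), and tsh passed in all 21 alternative analyses that tested it.

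The division by tsh was nearly complete in single cells. At least 1 tsh UMI was seen in 122 of 131 and 41 of 43 Hox-positive cells (93.1% and 95.3%), against 6 of 207 and 8 of 201 Hox-negative cells (2.90% and 3.98%). After every cell was thinned to 5000 UMIs in 1 random draw, the shares were 46.6% and 37.2% in Hox-positive cells and 0% and 0.5% in Hox-negative cells. Another draw gave 42.7% and 30.2% in Hox-positive cells and 0.483% and 0% in Hox-negative cells, so these values vary with the draw. The count of 0 of 207 for the first library is a limit of depth, since 6 of those cells carried tsh before thinning.

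tio, the close paralogue of tsh, followed it at a lower level, with 5.45 and 6.92 CPM in Hox-positive cells against 0.193 and 0.0789 CPM in Hox-negative cells (log2 fold change 5.32, SE 0.66, edgeR adjusted p = 8.44e-14). Homothorax and Extradenticle are homeodomain proteins that bind DNA together with Hox proteins. hth had 894 and 787 CPM in Hox-positive cells and 470.3 and 609 CPM in Hox-negative cells (log2 fold change 0.68, SE 0.07, edgeR adjusted p = 3.6e-16), and 2 or more hth UMIs were found in 99.2% and 97.7% of Hox-positive against 74.9% and 73.6% of Hox-negative cells. hth was thus common in both groups and tsh in 1 of them. exd did not pass, with a log2 fold change of 0.07 (SE 0.08) that changed sign in 2 alternatives.

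**Figure D3:**
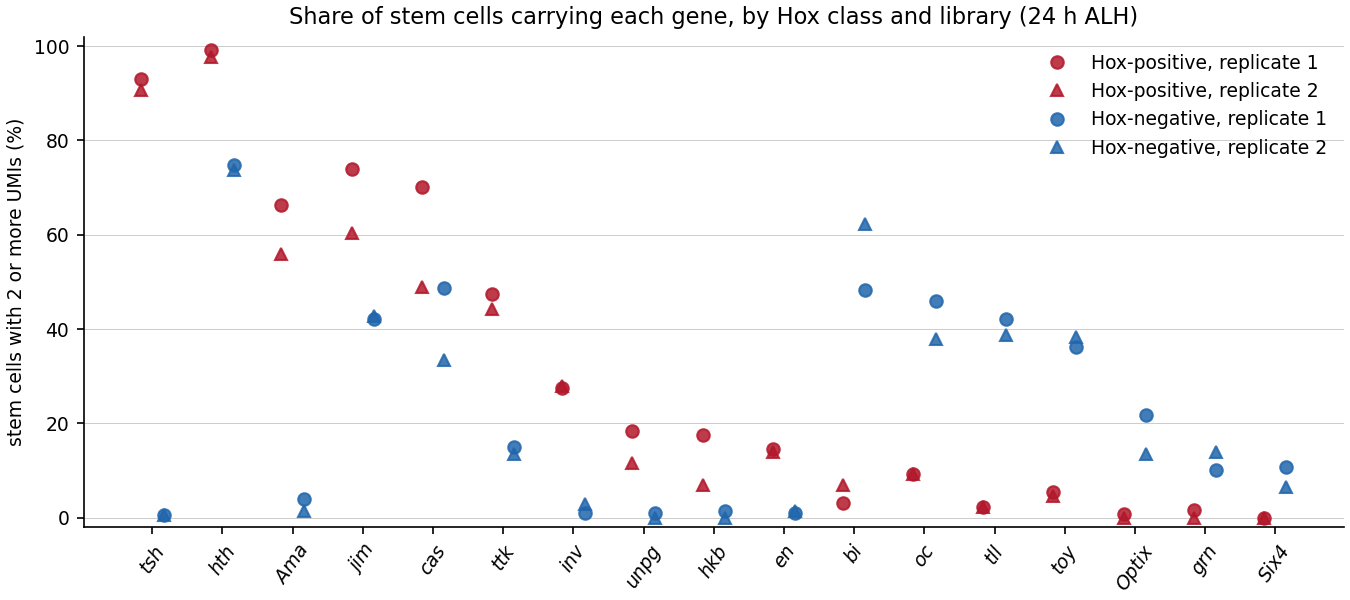
Share of NSCs with 2 or more UMIs of each gene (vertical axis, %) for Hox-positive cells (red) and Hox-negative cells (blue), with a circle for the first and a triangle for the second 24 h ALH library. tsh separates the groups at 93.1% and 90.7% against 0.483% and 0.498%, whereas bi, oc, tll and toy are each carried by part of the Hox-negative cells.

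Among the other genes of the 10 largest higher levels, hkb and unpg were restricted to few cells. hkb, a zinc finger gene of the embryonic termini that marks single neuroblasts (3R, 4345015 to 4346646), had 32.6 and 16.9 CPM in Hox-positive cells against 1.1 and 0 CPM in Hox-negative cells (log2 fold change 5.41, SE 0.28, edgeR adjusted p = 9.83e-52). unpg, a homeobox gene of the ventral nerve cord, had 30.04 and 11.2 CPM against 1.61 and 0.0789 CPM (log2 fold change 4.57, SE 0.28). Only 17.6% and 6.98% of Hox-positive cells had 2 or more hkb UMIs, and 18.3% and 11.6% had 2 or more unpg UMIs.

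Ama, which encodes a secreted immunoglobulin protein of the neural cell surface, was more evenly spread. It had 47.3 and 41.5 CPM in Hox-positive cells and 2 and 0.947 CPM in Hox-negative cells (log2 fold change 4.88, SE 0.20, edgeR adjusted p = 1.36e-125), and 66.4% and 55.8% of Hox-positive against 3.86% and 1.49% of Hox-negative cells had 2 or more UMIs. The gene lies at 3R, 6762593 to 6765261, inside the Antennapedia complex of Hox genes. Ama passed in all 21 alternative analyses that tested it.

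The remaining genes of this group showed smaller differences over a background in Hox-negative cells. ttk, a repressor of neuronal fate, had 25.6 and 25.8 CPM in Hox-positive and 7.8 and 9.31 CPM in Hox-negative cells (log2 fold change 1.64, SE 0.17). jim, a zinc finger gene, had 99.5 and 131 CPM against 34.2 and 46.3 CPM (1.55, SE 0.09). CG1648 had 34 and 20.8 CPM against 9.54 and 3.95 CPM (2.02, SE 0.17). mirr, an Iroquois homeobox gene, had a log2 fold change of 1.56 (SE 0.16), which was -0.24 within the depth window. One gene was at 0 in both Hox-negative sums, fd96Ca, a forkhead gene with 25 UMIs in Hox-positive cells, at least 20.9-fold higher against a floor of 3 UMIs over the group. It was picked after its values were seen.

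**Figure D4:**
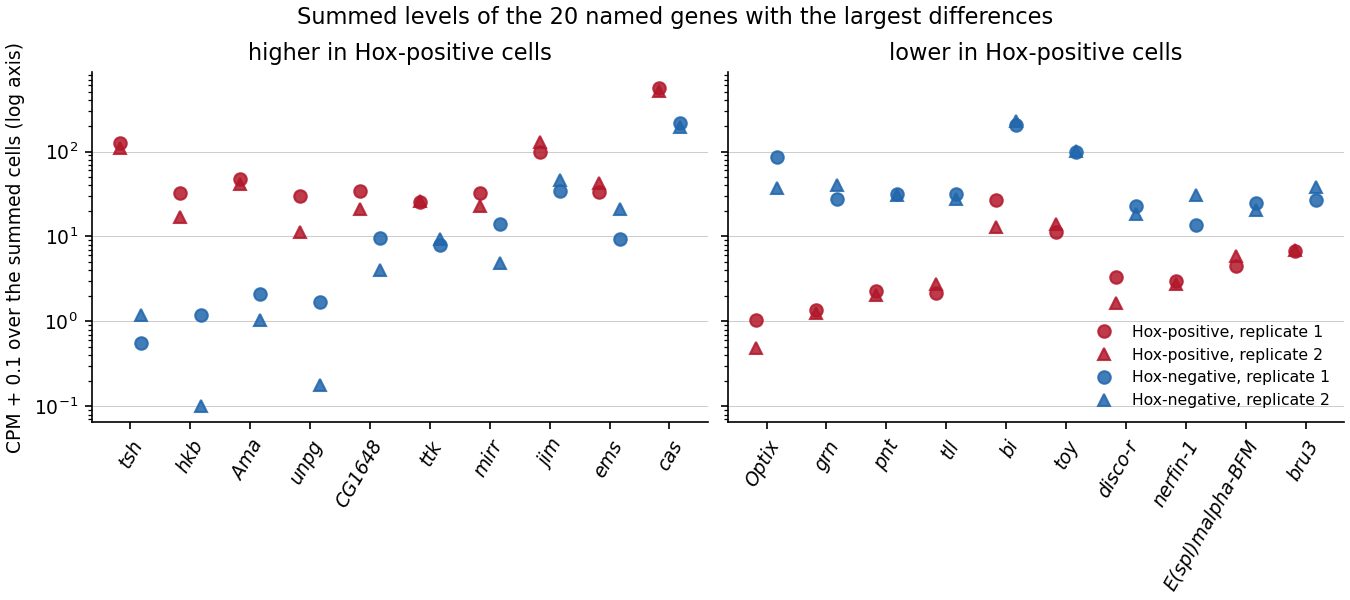
Summed levels (CPM plus 0.1, logarithmic axis) of the 10 genes with the largest higher and the 10 with the largest lower levels in Hox-positive NSCs. Only genes that passed, with at least 20 CPM in the higher group and no overlap, were ranked. Hox-positive sums are in red to the left of Hox-negative sums in blue, with a circle for the first and a triangle for the second library. The groups do not overlap for any of the 20 genes, as the rule for naming them required.

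Genes of brain patterning were lower in Hox-positive NSCs more often than higher. Of 24 tested genes of a list of brain and anterior patterning factors, 12 were lower and 5 higher, with a median log2 fold change of -1.44 as against 0.00 over all genes. The share lower (12 of 24) compares with 3.8% over all genes. Optix, a homeobox gene of the eye and brain, had 0.928 and 0.385 CPM in Hox-positive cells against 87 and 37.5 CPM in Hox-negative cells (log2 fold change -6.53, SE 0.22, edgeR adjusted p = 5.38e-174).

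Within the Hox-negative cells these genes were carried by different fractions. toy, a Pax6 gene, had 11.1 and 13.8 CPM in Hox-positive cells against 99.9 and 101 CPM in Hox-negative cells (log2 fold change -3.05, SE 0.12), with 2 or more UMIs in 5.34% and 4.65% against 36.2% and 38.3% of cells. tll, a nuclear receptor gene of the embryonic head (3R, 30852315 to 30854400), had 2.09 and 2.69 CPM against 31.9 and 27.8 CPM (-3.76, SE 0.23), with 2 or more UMIs in 2.29% and 2.33% against 42% and 38.8% of cells. Optix reached 2 UMIs in 21.7% and 13.4% of Hox-negative cells. None of these genes marked the Hox-negative cells as completely as tsh marked the Hox-positive ones.

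oc, a homeobox gene of the head, was also carried by some Hox-positive cells. oc had 17.3 and 9.23 CPM in Hox-positive and 67.8 and 50.3 CPM in Hox-negative cells (log2 fold change -2.06, SE 0.12), and at least 1 UMI in 15 of 131 and 4 of 43 Hox-positive cells and 101 of 207 and 79 of 201 Hox-negative cells. Most of these Hox-positive cells carried tsh as well, 12 of the 15 and 3 of the 4. By contrast 102 and 116 Hox-negative cells had neither tsh nor oc. Close to equal numbers of Hox-negative NSCs thus carried oc or lacked both genes in the first library.

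Other members of the list, named after their values were seen, ranged widely. Those lower were scro (log2 fold change -5.61), hbn (-3.45), erm (-3.41), Dll (-3.41), Rx (-2.73), dac, opa (-1.68) and eya (-0.60). The 5 higher were ems (1.49, SE 0.14), kn (1.44), slp1 (1.19), slp2 (0.82, SE 0.10) and vvl (0.55). ems, a head gap homeobox gene that is also used in trunk segments, had 33.6 and 42.7 CPM in Hox-positive against 9.29 and 21 CPM in Hox-negative cells, and ems was carried at 2 or more UMIs by 26% and 34.9% against 9.66% and 16.9% of cells.

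Further transcription factor genes with the largest lower levels were not in that list. bi, the T-box gene of the optic lobe, had 26.7 and 12.7 CPM in Hox-positive cells and 203 and 232 CPM in Hox-negative cells (log2 fold change -3.25, SE 0.27, edgeR adjusted p = 0.013), and 48.3% and 62.2% of Hox-negative cells had 2 or more bi UMIs against 3.05% and 6.98% of Hox-positive cells. grn, a GATA factor gene, had 1.28 and 1.15 CPM against 27.7 and 40.7 CPM (-4.60, SE 0.25). pnt, the ETS factor of type II NSCs of the brain, had 2.2 and 1.92 CPM against 31.9 and 31 CPM (-3.87, SE 0.23), and disco-r had 3.25 and 1.54 CPM against 22.8 and 18.2 CPM (-2.94, SE 0.23). bi was the most widespread of them.

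Six4, a homeobox gene picked after its values were seen, had 0 UMIs in both Hox-positive sums against 360 and 157 UMIs in the Hox-negative sums, at least 68.6-fold lower against a floor of 3 UMIs over the group. By the same floor drm was at least 15.9-fold, fd102C at least 7.97-fold and croc at least 4.65-fold lower. These 4 genes were the only called genes with no UMI in either Hox-positive sum.

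Genes that pattern the segments of the trunk went the other way. Of 18 tested genes of segment polarity, columnar and pair-rule patterning, 9 were higher and 1 lower, with a median log2 fold change of 1.07. The share higher (9 of 18) compares with 3.9% over all genes. en and inv, neighbouring homeobox genes of posterior compartments, had 11.2 and 10 CPM and 17 and 16.2 CPM in Hox-positive cells, against 0.774 and 0.868 CPM and 0.709 and 1.97 CPM in Hox-negative cells (log2 fold changes 3.72 and 3.77). gsb and gsb-n, paired-class genes of neuroblast rows, were higher by 2.98 and 2.90, and Dr and eg by 1.19 and 1.28. These 6 genes were named after their values were seen. nkd, a Wnt antagonist, was lower, with 71.9 and 52.7 CPM in Hox-positive and 88 and 79.7 CPM in Hox-negative cells (-0.38, SE 0.09, edgeR adjusted p = 4.87e-04).

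Of these genes en, inv, gsb, gsb-n, Dr and eg were each present in a minority of the Hox-positive NSCs. By contrast nkd had at least 1 UMI in 88.5% and 88.4% of Hox-positive cells. en reached 2 UMIs in 14.5% and 14% of Hox-positive cells against 0.966% and 1.49% of Hox-negative cells, and inv in 27.5% and 27.9% against 0.966% and 2.99%. gsb differed between the libraries, with 14.4 and 1.92 CPM in the Hox-positive sums, and did not pass without 1 Hox-positive cell that carried repo, the gene of a glial transcription factor (3.04, edgeR adjusted p = 0.0783). Of the 27 genes of the list, 9 were too low to be tested and 3 of these had no UMI, among them prd.

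Among temporal identity factors the clearest difference was in cas, the zinc finger gene of the late embryonic temporal window. cas (3R, 5712975 to 5716805) had 557 and 520.4 CPM in Hox-positive cells against 218 and 197 CPM in Hox-negative cells (log2 fold change 1.41, SE 0.07, edgeR adjusted p = 4.08e-83), and 70.2% and 48.8% of Hox-positive against 48.8% and 33.3% of Hox-negative cells carried 2 or more UMIs. Of 13 tested factors, 2 were higher and 2 lower, with a median of -0.05, beside 3.9% higher and 3.8% lower over all genes. nub was also called higher (3.70, SE 0.53), but 76.5% and 100% of its UMIs in the Hox-positive sums came from 1 cell each. The 2 lower ones were grh (-0.26, SE 0.07, edgeR adjusted p = 4.91e-03) and dan (-1.08, SE 0.25).

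The factors that mark early and late larval windows did not pass. Imp had 10234 and 13899 CPM in Hox-positive and 13674 and 14590.0 CPM in Hox-negative cells (log2 fold change -0.22, SE 0.08), chinmo 1009.8 and 884 against 907 and 939 CPM (0.07, SE 0.07), and svp 288 and 206 against 312 and 265 CPM (-0.20, SE 0.07). Syp had 55.3 and 35 CPM against 78.1 and 199 CPM, with single cells giving 43.3% and 31.2% of the Hox-negative UMIs of Syp. The levels of Imp and chinmo were high in both groups.

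**Figure D5:**
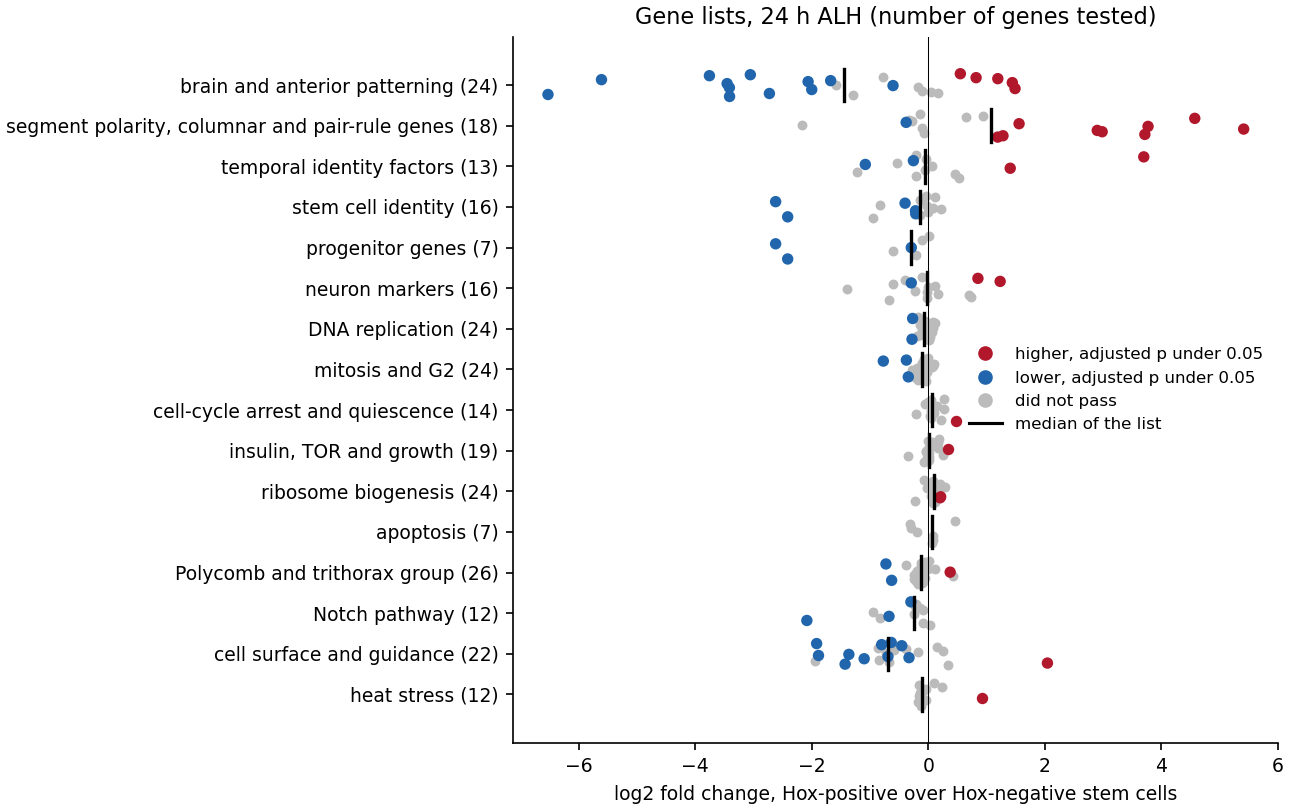
Log2 fold change (Hox-positive over Hox-negative NSCs, horizontal axis) of each tested gene in 16 lists, with called genes in colour and a black bar for the median of the list. The brain patterning list spreads to the left (median -1.44) and the segment list to the right (1.07), while DNA replication, mitosis and growth lists stay close to 0.

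Of 16 tested NSC identity genes, 5 were lower and 0 higher in Hox-positive NSCs, beside 3.8% lower and 3.9% higher over all genes. dpn and wor, which the selection used, had 177 and 178 CPM and 154 and 148 CPM in Hox-positive cells, against 160.1 and 163 CPM and 148 and 160.2 CPM in Hox-negative cells. ase, a proneural NSC gene that the selection did not use, had 113 and 111 CPM against 115 and 114 CPM (log2 fold change -0.01, SE 0.08) and did not pass. mira, which encodes the adaptor that carries fate determinants into the daughter cell, had 335 and 243 CPM against 432 and 343 CPM (-0.40, SE 0.07, edgeR adjusted p = 1.08e-06), and brat and SoxN were lower by -0.22 and -0.21.

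The remaining members, nerfin-1 and Hey, belong to daughter cells. nerfin-1, which keeps young neurons from reverting, had 2.9 and 2.69 CPM in Hox-positive cells and 13.5 and 30.8 CPM in Hox-negative cells (log2 fold change -2.62, SE 0.23), and Hey, a Notch target in newborn neurons, had 1.04 and 1.15 CPM against 5.61 and 6.47 CPM (-2.41, SE 0.45). In the first library 1 Hox-negative cell held 53 of the Hey UMIs, 60.9% of that sum. Of 7 tested progenitor genes, 3 were lower and 0 higher, nerfin-1, Hey and fne, and pros did not pass (-0.11, SE 0.07), beside 3.8% lower over all genes. nerfin-1 and Hey were thus counted in both lists, and fne turned higher with no condition on nSyb. The progenitor list summed to 411 and 348 CPM in Hox-positive and 449 and 551 CPM in Hox-negative cells, and its part in the other results was not tested.

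The Notch target genes of the E(spl) complex were lower where they differed. Of 12 tested Notch pathway genes, 3 were lower and 0 higher, beside 3.8% lower and 3.9% higher over all genes. E(spl)m7-HLH, a basic helix-loop-helix repressor, had 8.35 and 3.46 CPM in Hox-positive cells and 25.1 and 43.3 CPM in Hox-negative cells (log2 fold change -2.08, SE 0.22), and E(spl)mbeta-HLH 48.7 and 51.9 CPM against 66.7 and 109 CPM (-0.67, SE 0.09). E(spl)malpha-BFM, of the Bearded family, was not in this list and is named for its large difference. It had 4.41 and 5.77 CPM against 24.6 and 20.4 CPM (-2.26, SE 0.20). The receptor gene N (-0.14, SE 0.07) and the ligand gene Dl (0.03, SE 0.07) did not pass.

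Cell surface genes were lower in Hox-positive NSCs for 10 of 22 tested and higher for 1, with a median of -0.69, beside 3.8% lower and 3.9% higher over all genes. trn and Toll-6, leucine-rich repeat receptors, had 31 and 25.4 CPM and 21.5 and 9.62 CPM in Hox-positive cells, against 103 and 130.2 CPM and 67.3 and 63.8 CPM in Hox-negative cells (log2 fold changes -1.92 and -1.88, SE 0.10 and 0.12). Toll-7 (-1.36), CadN (-1.43) and Nrt (-0.69) were also lower. Con, a homophilic adhesion gene, was the 1 higher, with 10.8 and 7.69 CPM against 2.39 and 2.21 CPM (2.05, SE 0.34), and 39.8% and 70% of its Hox-positive UMIs came from 1 cell each. bru3, an RNA-binding protein gene, had 6.73 and 6.92 CPM against 26.4 and 38 CPM (-2.11, SE 0.17).

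Among NSCs without an nSyb UMI, genes of neurons gave no common direction. The selection removed cells with RNA of this neuronal gene from both groups, which limits this result. With no condition on nSyb, 540 and 327 cells counted as NSCs, beside 361 and 251 here. Of 16 neuron genes tested, 2 were higher and 1 lower, with a median of -0.02, beside 3.9% higher and 3.8% lower over all genes. hig, which encodes the synaptic cleft protein Hikaru genki, had 912 and 720.4 CPM in Hox-positive cells and 396 and 312 CPM in Hox-negative cells (log2 fold change 1.23, SE 0.07, edgeR adjusted p = 1.08e-65). All Hox-positive cells had 2 or more hig UMIs, as did 92.3% and 81.6% of Hox-negative cells, and the difference passed in 21 of 22 alternatives. nrv3, a sodium pump subunit, was the second (0.85, SE 0.21), but 1 cell held 48 nrv3 UMIs, 35.3% of the first Hox-positive sum, and nrv3 did not pass without the cell that carried glial repo (0.43, edgeR adjusted p = 0.316). fne was lower (-0.29, SE 0.09) but 0.58 higher when nSyb was not required to be 0, and the release genes brp, Syt1, cpx and Snap25 were under 6 CPM in all sums and did not pass.

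Cell-cycle genes that passed were lower in Hox-positive NSCs. Of 24 tested mitosis and G2 genes, 3 were lower and 0 higher (median -0.10), and of 24 DNA replication genes, 2 were lower and 0 higher (median -0.07), beside 3.8% lower and 3.9% higher over all genes. stg, the Cdc25 phosphatase gene that drives entry into mitosis (3R, 29251826 to 29255800), had 153 and 86.5 CPM in Hox-positive cells and 241 and 174 CPM in Hox-negative cells (log2 fold change -0.77, SE 0.08, edgeR adjusted p = 2.62e-20). stg passed in 15 of 22 alternatives. Without the block its adjusted p was 0.634 (edgeR), within the depth window stg gave -0.15, and it did not pass when any 1 of the 4 sums was left out.

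CycE (-0.28, SE 0.07), geminin (-0.27, SE 0.08) and CycB3 (-0.34, SE 0.08) were lower by small amounts. Within the depth window CycE gave 0.0319, geminin 0.0454 and CycB3 0.0028. PCNA, with 685 and 636 CPM in Hox-positive and 656 and 626 CPM in Hox-negative cells, did not pass (0.07, SE 0.07). Median depth per cell differed between the groups in the first library, as given above, and its part in these values beyond the depth window was not tested.

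Genes of quiescence and growth passed at shares near that of all genes, of which 7.71% were called. Of 14 tested genes of arrest and quiescence 1 passed, Glut4EF (0.47, SE 0.11), which the second library alone did not show (-0.07). The quiescence gene trbl had 18.7 and 12.7 CPM in Hox-positive and 15.7 and 19.1 CPM in Hox-negative cells (-0.01, SE 0.16), and dap, the Cdk inhibitor gene, 20.1 and 20.4 against 21.5 and 28.2 CPM (-0.21, SE 0.14). Of 19 insulin, TOR and growth genes 1 passed, Thor, the 4E-BP translation brake, with 278 and 299 CPM in Hox-positive and 205 and 268 CPM in Hox-negative cells (0.33, SE 0.07, edgeR adjusted p = 1.4e-04). Thor was at -0.23 within the depth window. Of 24 ribosome biogenesis genes 2 passed, Nop56 (0.21, SE 0.07) and Non1 (0.20, SE 0.07).

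Polycomb and trithorax group proteins maintain the on and off states of Hox genes. Of 26 tested, 1 was higher and 2 lower, beside 3.9% higher and 3.8% lower over all genes. Pcl had 39.2 and 44.2 CPM in Hox-positive and 62.1 and 68.4 CPM in Hox-negative cells (log2 fold change -0.63, SE 0.10, edgeR adjusted p = 9.68e-09), ph-p 19.9 and 21.5 against 31.3 and 40.8 CPM (-0.73, SE 0.13), and ash2, a trithorax group gene, 102 and 119 against 87.9 and 82.4 CPM (0.38, SE 0.08). Pc, E(z) and trx did not pass (-0.21, -0.10 and 0.01).

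Markers of other cell types were measured in the same sums. The 8 glial genes summed to 539 and 373 CPM in Hox-positive and 387 and 355 CPM in Hox-negative cells, the 9 of trachea and muscle to 13.3 and 34.6 against 26.4 and 21.8 CPM, and the 6 of haemocytes to 4.87 and 2.31 against 1.61 and 3.47 CPM, with btl and NimC1 at 0. Glial repo had 8 and 0 UMIs in Hox-positive sums and 0 and 0 in Hox-negative sums, all 8 in 1 cell, which also held 870 of the 879 UMIs of Gs2, a glial enzyme gene, in that sum. Without this cell 543 genes passed, 515 of them among the 539. Of 4 tested glial genes 1 was higher, Eaat1, a glutamate transporter also found in NSCs, with 151 and 145 CPM against 94.4 and 89.8 CPM (0.71, SE 0.08). Of 6 tested trachea and muscle genes 1 was lower, Mlc2 (-0.98, SE 0.25), with 67.2% of its UMIs in the first Hox-negative sum from 1 cell, and 2 haemocyte genes did not pass. Of 12 heat stress genes 1 was higher, Hsp67Bc, with 20.5 and 23.8 CPM against 9.67 and 15.1 CPM (0.93, SE 0.16). These counts stand beside 3.9% higher and 3.8% lower over all genes. Beyond the run without that 1 cell, the part of these markers in the results was not tested.

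Within the Hox-positive NSCs, cells were divided again by abd-A, since abd-A marks abdominal segments, whose NSCs leave quiescence after thoracic ones in the study. Only 4 and 2 cells had 2 or more abd-A UMIs, with 195260 and 62759 UMIs in all, against 125 and 41 cells with none, with 8286239 and 2537314 UMIs. Of 5558 genes tested by edgeR with the library as a block, 22 (0.396%) passed, 15 (0.27%) higher and 7 (0.126%) lower in abd-A-positive cells. Each value rests on these 6 cells, and 6 genes passed by DESeq2.

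cas was low in the abd-A-positive cells. They held 5 and 0 cas UMIs, or 25.6 and 0 CPM, against 4787 and 1353 UMIs, or 578 and 533 CPM, in abd-A-negative cells (log2 fold change -4.82, SE 0.44, edgeR adjusted p = 1.93e-24). cas passed when any 1 of the 4 sums was left out, with log2 fold changes of -4.39 to -4.85 where both groups kept a cas UMI. By contrast svp did not pass without the first abd-A-positive or the first abd-A-negative sum, and D and Obp44a did not pass without the block. svp, the nuclear receptor gene of the temporal series, had 81.9 and 79.7 CPM, or 16 and 5 UMIs, against 298 and 209 CPM (-1.67, SE 0.34). slp2 had 5.12 and 0 CPM against 59.7 and 48.1 CPM (-3.79, SE 0.99). The Sox gene D had 5.12 and 15.9 CPM against 64.4 and 111 CPM (-3.23, SE 0.74). In abd-A-positive cells slp2 and D lay at the counting floor, since these sums held only 195260 and 62759 UMIs. Of 8 tested temporal factors 3 were lower and 0 higher, beside 0.126% lower and 0.27% higher over all genes. In these sums 2 of the 17 factors in the list had no UMI. svp was at 1.11 with no condition on nSyb. Obp44a (-3.01, SE 0.36) was also lower, but was at 0.04 against abd-A-negative cells without Ubx and at 0.20 without the abd-A-negative cell that carried glial repo.

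CycE and Thor differed in opposite directions. CycE had 76.8 and 31.9 CPM in abd-A-positive cells against 231 and 203 CPM in abd-A-negative cells (log2 fold change -1.73, SE 0.36, edgeR adjusted p = 1.15e-03). In abd-A-positive cells these were 15 and 2 UMIs of CycE, in 3 and 1 cells. Thor had 492 and 1084 CPM against 269.5 and 279.8 CPM (1.42, SE 0.22, edgeR adjusted p = 1.54e-07). The 2 abd-A-positive cells of the second library held 54115 and 8644 UMIs, so 1 cell gave most of that sum. CycE was the 1 lower of 23 tested replication genes and Thor the 1 higher of 18 growth genes. Over all genes 0.126% were lower and 0.27% higher. The mitosis gene stg, which did not pass, had 17 and 0 UMIs in abd-A-positive cells, or 87.1 and 0 CPM, against 155 and 88.7 CPM in abd-A-negative cells.

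Heat stress genes also differed in this comparison. Of 10 tested 3 were higher, among them Hsp26, with 2791 and 1960 CPM in abd-A-positive against 1300 and 1059 CPM in abd-A-negative cells (1.06, SE 0.13), and Hsp70Ab, with 236 and 382 CPM against 105 and 70.9 CPM (1.69, SE 0.27). The third was Hsp23 (0.65), and over all genes 0.27% were higher. Of the genes with the largest higher levels, Sirup had 348 and 494 CPM against 133 and 132 CPM (1.64, SE 0.25), CG15093 a log2 fold change of 1.59 (SE 0.40) and nAChRalpha5 1.26 (SE 0.29). The median abd-A-positive cell had 54938 and 31380 UMIs against 66333 and 64124. The part of stress and depth in this comparison was not tested.

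A broader division, chosen after these values were seen, set cells with 2 or more UMIs of Ubx and abd-A together (26 and 7 cells) against cells with Antp alone (96 and 32 cells). Of 5865 genes tested by edgeR with the library as a block, 37 (0.631%) passed, 24 (0.409%) higher and 13 (0.222%) lower in Ubx/abd-A-positive cells. tsh did not pass, with 127 and 147 CPM against 130.2 and 108 CPM in Antp-only cells (0.14, SE 0.15), nor did hth (-0.08, SE 0.13). By DESeq2 0 genes passed, with 27 under an unadjusted p of 0.05. Without the block 7 genes passed, and stg, CycE, RnrS, RecQ4, kn, CG42613, Dscam1, Fas3, CG1124 and Hsp70Ab were not among them. Leaving out the first Ubx/abd-A-positive sum left 14 calls, 2 of them among the 37, and leaving out the second gave 164.

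The summed glial markers differed mainly in the first library, where 1 cell held most of the Gs2 RNA. The 8 glial genes summed to 1134.5 and 434.8 CPM in Ubx/abd-A-positive cells against 418 and 365 CPM in Antp-only cells, and the 6 haemocyte genes to 19.4 and 0 against 1.99 and 2.99 CPM. Gs2 had 874 and 0 UMIs in Ubx/abd-A-positive cells against 5 and 1 in Antp-only cells, and 870 of these UMIs and all 8 of repo were in 1 Ubx/abd-A-positive cell of the first library. Of 3 tested glial genes 0 passed by edgeR, with nrv2 (0.46, SE 0.13) under an unadjusted p of 0.05, and 0 haemocyte genes could be tested. Without that cell, a run chosen after the values were seen, 20 genes passed, 9 higher and 11 lower, and 18 of them were among the 37. Of the 24 higher genes 8 still passed. CG42613, RapGAP1 and Dscam1 did not, and Hsp70Ba was no longer tested. Of the lower genes, kn and Mcm3 did not pass without that cell.

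Genes of the cell cycle were among those lower. stg had 90.5 and 69.1 CPM in Ubx/abd-A-positive cells and 170 and 95.7 CPM in Antp-only cells (log2 fold change -0.78, SE 0.16, edgeR adjusted p = 9.21e-04), and CycE 154 and 153 CPM against 246 and 202 CPM (-0.57, SE 0.14, edgeR adjusted p = 0.0184). Of 24 tested replication genes 3 were lower and 0 higher (median -0.37), beside 0.222% lower and 0.409% higher over all genes. The 3 were CycE, RnrS (-0.63, SE 0.17) and Mcm3 (-0.60). Also lower were dnk, a nucleoside kinase gene, and RecQ4, a helicase gene (-0.70 and -0.77). In the depth window stg and CycE turned to 0.996 and 0.22, and the median Ubx/abd-A-positive cell held 54167 and 54115 UMIs against 68881 and 64166 in Antp-only cells. run, a pair-rule gene, had 2.01 and 5.76 CPM against 18.7 and 9.47 CPM (-2.55, SE 0.56), but was at 0.21 with no condition on nSyb. kn had 4.69 and 0 CPM against 12.7 and 21.4 CPM (-1.92, SE 0.51).

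Among genes with at least 20 CPM in the higher group and no overlap, CG42613 had the largest higher value. This value rested on the cell that carried glial repo. CG42613 had 124 and 25.9 CPM in Ubx/abd-A-positive against 14.6 and 11.5 CPM in Antp-only cells (2.77, SE 0.23), and 0.48 (edgeR adjusted p = 0.999) without that cell. RapGAP1, a Rap GTPase regulator, had 30.8 and 23 CPM against 9.81 and 7.98 CPM (1.64, SE 0.33), and Dscam1, the isoform-rich adhesion receptor, 20.1 and 25.9 CPM against 8.89 and 6.98 CPM (1.38, SE 0.36), and without that cell they were at 1.26 and 1.05 (edgeR adjusted p = 0.0828 and 0.426). 7B2 (1.07, SE 0.24) and the adhesion gene Fas3 (1.04, SE 0.20) followed. CG1124 (-2.27, SE 0.43) and CG10939 (-0.80, SE 0.15) were lower. Of 11 tested heat stress genes 2 were higher, beside 0.409% over all genes. Among them was Hsp70Ab with 131 and 190.1 CPM against 102 and 54.3 CPM (0.85, SE 0.19). The other, Hsp70Ba (2.18), was no longer tested without the cell that carried glial repo.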

How the data were processed

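Single cells were sequenced as 10x Chromium libraries. Counts were deposited by the authors as raw UMIs, 1 matrix a library, without normalization, and the submitters' processing notes name Cell Ranger 3 and dm6. The headers and the methods name other Cell Ranger versions. Each library covers 14240 genes. The deposited counts were filtered, selected and summed per library and group as described above, and mt: genes and the 6 genes of the selection stayed in the totals but were not tested. The members and all gene lists were chosen with earlier results of these data known.

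Sums were compared in R 4.3.3 with edgeR 4.0.16 (TMM, filterByExpr, robust quasi-likelihood fit, library as block, Benjamini-Hochberg adjustment over all genes tested) and DESeq2 1.42.0, and cells were handled in scanpy 1.11.5 (Python 3.11.15, pandas 2.3.3, scipy 1.17.1, numpy 2.4.6). Scripts were tested on simulated data. SE is the fold change over the root of the F statistic. The 2 sums of a pair come from the same library, and their library differences correlated at 0.249 over 3832 genes (0.1 and 0.107 in the comparisons by abd-A and by Ubx/abd-A).

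Named genes were the Hox and trunk genes, in each direction the 10 largest differences with at least 20 CPM in the higher group and no overlap (5 in comparisons within Hox-positive cells), and up to 4 members of each list. Other genes are said to be named after their values were seen, or are list members given for their place in the list. hth, tio, pnt, bru3, mira, nkd, Con, Glut4EF, svp, nAChRalpha5, CG42613 and Fas3 overlap an annotated gene on the same strand, and Hsp70Ab has near-identical copies, so their UMIs are uncertain. hig, Ama, bi, jim, CycE and others overlap a gene on the opposite strand, and use of strand in counting is not given in the sources used here. Coordinates are those of BDGP6.54. Thinning drew 5000 UMIs per cell, and 1 cell below this was left out. Scrublet called 1 doublet among the Hox-positive cells. The 24 h ALH libraries shared 12 and 1 cell barcodes with a stage 17 library, 5 of them NSCs.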

Additional observations from a re-analysis of the deposited data

How the results depend on the processing

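For Hox-positive against Hox-negative NSCs, 539 genes passed with the library as a replicate block and 152 with no replicate block. DESeq2 gave 99, cells thinned to 5000 UMIs after selection 83, thinning before selection 3, and the depth window (cells between the 25th and 75th percentile of the Hox-positive cells' UMIs) 131. Leaving out 1 of the 4 sums gave 111 to 243, with the lone sum assumed to vary like the other group. RLE or upper-quartile scaling, other limits on low counts, mitochondrial share or genes, doublets, shared barcodes (538), the cell with repo (543), ase or the Hox thresholds gave 490 to 583, and 620 passed with nSyb not required to be 0, 69% of them higher against 50.6% in the main comparison. The runs without shared barcodes or the cell with repo and the Ubx/abd-A comparison were chosen after seeing the data.

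For abd-A, 22 passed. DESeq2 gave 6, thinning after selection 1, no condition on nSyb 509, and leaving out 1 sum 11 to 35. With no replicate block 25 passed. For Ubx/abd-A against Antp alone, 37 passed, with no replicate block 7, by DESeq2 0, after thinning 0 (69 under an unadjusted p of 0.05), in the depth window 6, without the cell with repo 20, with at least 50 UMIs in 2 sums 14, with no filter on low counts 93, with no condition on nSyb 671, and without 1 sum 14 to 164. The depth window and thinning before selection left a sum empty for abd-A, as did thinning first for Ubx/abd-A, and were not run.

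Signs turned as follows, and the cause was not tested. In the depth window of the main comparison: mirr -0.24, CycE 0.0319, geminin 0.0454, CycB3 0.0028, Glut4EF -0.037 and Thor -0.23. With thinning before selection: exd -0.35, fne 0.18, Glut4EF -0.68 and ash2 -0.0062. fne was 0.58 with no condition on nSyb. Leaving out 1 sum or 1 library, exd lay between -0.0644 and 0.15 (-0.04 without the first Hox-negative sum), Glut4EF between -0.0717 and 0.746 and Mlc2 between -1.62 and 0.16, the lowest for Glut4EF and the highest for Mlc2 in the second library alone. Obp44a was 0.036 against abd-A-negative cells without Ubx and 0.199 without the cell with repo, and svp 1.11 with no condition on nSyb. In the Ubx/abd-A comparison stg was 0.996 and CycE 0.22 in the depth window, and run 0.21 with no condition on nSyb. A library alone leaves 1 sum a group and no test, only a ratio. The second library, with 43 Hox-positive cells, limits precision for low genes.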

Other observations

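Other transcription factor genes, picked after their values were seen, followed the same division. HGTX, a homeobox gene, had 12.8 and 9.62 CPM in Hox-positive and 1.55 and 1.74 CPM in Hox-negative NSCs (log2 fold change 2.82, SE 0.34), and kni, a gap gene, had 39 and 11 UMIs against 2 and 2 UMIs (4.86, SE 0.71). Gsc had 3 and 0 UMIs in Hox-positive and 143 and 133 UMIs in Hox-negative cells (-5.09, SE 0.49), TfAP-2 had 5 and 1 UMIs against 193 and 276 UMIs (-4.73, SE 0.35), and salm had 2.32 and 2.31 CPM against 24.3 and 15.6 CPM (-3.22, SE 0.24).

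Of 14 enzymes of glycolysis, listed after some of their values were seen, 12 were tested and 7 were higher in Hox-positive NSCs by edgeR with the library as a block, with a median log2 fold change of 0.30, beside 3.9% higher over all genes. Ald had 194 and 249 CPM in Hox-positive against 138 and 140 CPM in Hox-negative cells (0.68, SE 0.08, edgeR adjusted p = 4.69e-17), Tpi 331 and 363 against 263 and 255 CPM (0.45, SE 0.07), and Pfk 81 and 86.2 against 66.9 and 59.2 CPM (0.41, SE 0.09). Hex-A, Pgi, Eno, Gapdh2 and ImpL3 did not pass. With no replicate block 2 of the 12 passed, by DESeq2 2 and within the depth window 1.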
